A study of Mus musculus with 35 samples.

Results

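Kit, Mrgprb1, Mrgprb2, Fcer1a, Ms4a2, Hdc and Gata2 are genes through which mast cells receive signals, make histamine and keep their identity. They were picked by symbol, and all 7 were present among the 22609 gene symbols counted in each of 35 libraries of sorted mouse skin cells. In immune cells sorted by CD45, Kit, Mrgprb1, Mrgprb2, Hdc and Gata2 were called higher in males given paclitaxel (PTX) than in vehicle males. These were 5 of the 7 genes, while 0.956% of all 12131 tested genes were called higher. Only Kit passed in all 8 fits that left out 1 library. None of the 7 passed the same test against vehicle females, in whose libraries mast cell RNA was also more abundant than in vehicle males. The 2 subunit genes of the IgE receptor, Fcer1a and Ms4a2, did not pass against either vehicle group, and both varied widely between PTX libraries.

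Mast cells are long-lived granulated cells of connective tissue, numerous in skin, where they lie close to vessels and sensory nerve endings. KIT is the receptor for stem cell factor, which mast cells need to survive. Fcer1a encodes the IgE-binding alpha chain, and Ms4a2 the beta chain, of the high-affinity IgE receptor, whose crosslinking by antigen releases the granules. MRGPRB2 is a G protein-coupled receptor through which basic peptides and several drugs release mast cell granules without IgE, and Mrgprb1 encodes a close relative that mouse mast cells also express. Hdc encodes histidine decarboxylase, which makes histamine from histidine, and GATA2 is a transcription factor that mast cells and their progenitors require. Several members also have other known sources: basophils express Fcer1a, Ms4a2, Hdc and Gata2, melanocytes express Kit, and endothelial cells express Gata2.

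All animals were mice of strain C57, aged 8 to 16 weeks, and cells came from hind paw skin. The PTX group was male and received 2 intraperitoneal injections of 2 mg/kg, 1 day apart, with skin taken 6 days after the last one. It was set against vehicle females and vehicle males, and PTX females were not analysed here. Immune cells (CD45+) came from wild-type mice, fibroblasts from Col1a2-cre-ER/tdTom mice and keratinocytes from K5-cre-ER/tdTom mice, in which the Col1a2 or the K5 driver determines which cells carry the red label. Each of the 9 groups had 4 libraries, except keratinocytes of vehicle males with 3. Whether the libraries of a group are from different mice is not stated in the labels, so a p-value here reflects only how the libraries varied, and that variation may be technical.

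Immune libraries held 13847475 to 16251636 counts in genes in PTX males, 14437683 to 18979776 in vehicle females and 16076472 to 18766402 in vehicle males. Fewer genes carried more than 10 counts in PTX immune libraries, 5956 to 8700 against 10974 to 11036 in vehicle females and 11000 to 12813 in vehicle males. The 8 general immune markers summed to 6288 to 11805 CPM (gene counts scaled to the library size, with TMM factors within a sort) in PTX males, 6141 to 7825 CPM in vehicle females and 3948 to 6565 CPM in vehicle males. RNA of other cell types differed between the groups as well. The 8 fibroblast markers summed to 238 to 1444 CPM in PTX males, 83.2 to 388 CPM in vehicle females and 4379 to 10082 CPM in vehicle males, and the 7 keratinocyte markers summed to 0.596 to 26.0 CPM in PTX males, 10.1 to 130.2 CPM in vehicle females and 95.6 to 2170 CPM in vehicle males. Their part in the differences below was not tested. A higher level in these sorted pools can come from more mast cells, from less RNA of other cells or from more RNA per mast cell. These cannot be told apart.

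Mrgprb1 and Mrgprb2 lie near each other on chromosome 7, and the 2 IgE receptor subunit genes lie on chromosomes 1 and 19. Both pairs are shown by the 250 bases before their start sites. In immune cells the first pair passed against vehicle males, and neither gene of the second pair did. The sequences are from RefSeq on build GRCm38.p6, which is not the build of the counts, at chr7:48456343-48456592, chr7:48558087-48558336, chr1:173227230-173227479 and chr19:11623720-11623969, all on the minus strand. Capitals mark, on either strand, the hexamers to which GATA factors are known to bind, which are AGATAA or the variants TGATAA and also AGATAG as well as TGATAG.
Mrgprb1: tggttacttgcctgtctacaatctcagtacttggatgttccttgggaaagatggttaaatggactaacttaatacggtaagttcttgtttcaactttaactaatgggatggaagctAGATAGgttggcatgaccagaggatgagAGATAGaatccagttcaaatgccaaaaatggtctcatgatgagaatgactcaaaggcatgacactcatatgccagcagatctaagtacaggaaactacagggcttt
Mrgprb2: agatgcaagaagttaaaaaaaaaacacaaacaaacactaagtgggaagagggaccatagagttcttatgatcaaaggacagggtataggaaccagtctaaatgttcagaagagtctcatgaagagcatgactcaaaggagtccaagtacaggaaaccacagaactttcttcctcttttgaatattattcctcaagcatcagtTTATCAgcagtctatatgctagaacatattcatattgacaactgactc
Fcer1a: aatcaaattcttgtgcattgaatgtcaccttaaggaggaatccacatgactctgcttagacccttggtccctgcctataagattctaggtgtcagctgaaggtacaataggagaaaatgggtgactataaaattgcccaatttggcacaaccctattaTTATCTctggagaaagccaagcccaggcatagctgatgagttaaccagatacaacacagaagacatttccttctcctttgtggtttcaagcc
Ms4a2: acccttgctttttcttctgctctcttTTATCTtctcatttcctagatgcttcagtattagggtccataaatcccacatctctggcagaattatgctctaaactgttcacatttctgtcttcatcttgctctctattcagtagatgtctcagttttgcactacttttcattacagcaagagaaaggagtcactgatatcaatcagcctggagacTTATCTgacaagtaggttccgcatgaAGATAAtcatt
Ms4a2 held 3 such hexamers, at 224, 37 and 11 bases before the start, Mrgprb1 held 2, at 134 and 106 bases, and Mrgprb2 and Fcer1a held 1 each, at 48 and 92 bases. Hdc held 1, at 221 bases, and the start sites listed for Kit and Gata2 held none. The first bases after the Fcer1a start were not found in a GENCODE transcript of that gene, unlike those of the other members. Its distance thus rests on the RefSeq start alone. Of 32851 windows of the same length before annotated starts, 26.5% held at least 1, so a match describes the letters only. The related receptors can be told apart by reads: none of the 50-base stretches of Mrgprb1 or Mrgprb2 transcripts occurred in another gene's transcripts.

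In vehicle animals, the 7 genes were highest in the immune sort. Over the 8 vehicle libraries of each sort, in a fit over all 35 libraries, 7 of 7 were higher in immune cells than in fibroblasts, where 12.2% of 14459 tested genes were called higher. All 7 were also higher in immune cells than in keratinocytes (7 vehicle libraries), where 21.5% of genes were. Hdc averaged 458 ± 264 CPM in immune vehicle libraries and 1.56 ± 1.05 CPM in fibroblasts (SD, n = 8 each; log2 fold change 8.21 ± 0.61 SE, edgeR adjusted p = 1.04e-13). Kit had the smallest difference from fibroblasts, 254 ± 163 CPM in immune cells against 14.1 ± 17.1 CPM (3.87 ± 1.17, adjusted p = 0.0149). Mrgprb1, Mrgprb2 and Ms4a2 had no count in any vehicle keratinocyte library. Against a floor of 3 counts per library, Mrgprb1 was at least 365-fold higher in immune cells, Mrgprb2 at least 73.1-fold and Ms4a2 at least 22.4-fold. These floors and bounds cover counting error only.

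The main comparison asked how the members differed in skin immune cells 6 days after PTX, in males. Kit was at 575, 392, 200.0 and 440.3 CPM in the PTX libraries (replicates 1 to 4), at 403, 441, 333 and 403 CPM in vehicle females, and at 82.8, 93.8, 74.0 and 174 CPM in vehicle males. The lowest PTX library lay above the highest vehicle male library, while PTX males and vehicle females overlapped. Kit thus rose to 402 ± 155 CPM in PTX males, against 106 ± 46.2 CPM in vehicle males (SD, n = 4 each; log2 fold change 1.92 ± 0.35 SE, edgeR adjusted p = 0.0100, by Benjamini-Hochberg over 12131 genes). In this comparison 5.51% of all tested genes were called and 0.956% were called higher, against 5 of the 7 members. DESeq2 also called 5, but it called more of all tested genes than edgeR did. At an unadjusted edgeR p under 0.05 there were 5, as were 20.1% of genes. The median log2 fold change was 1.92 over the 7 members and 0.10 over all tested genes.

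**Figure D1:**
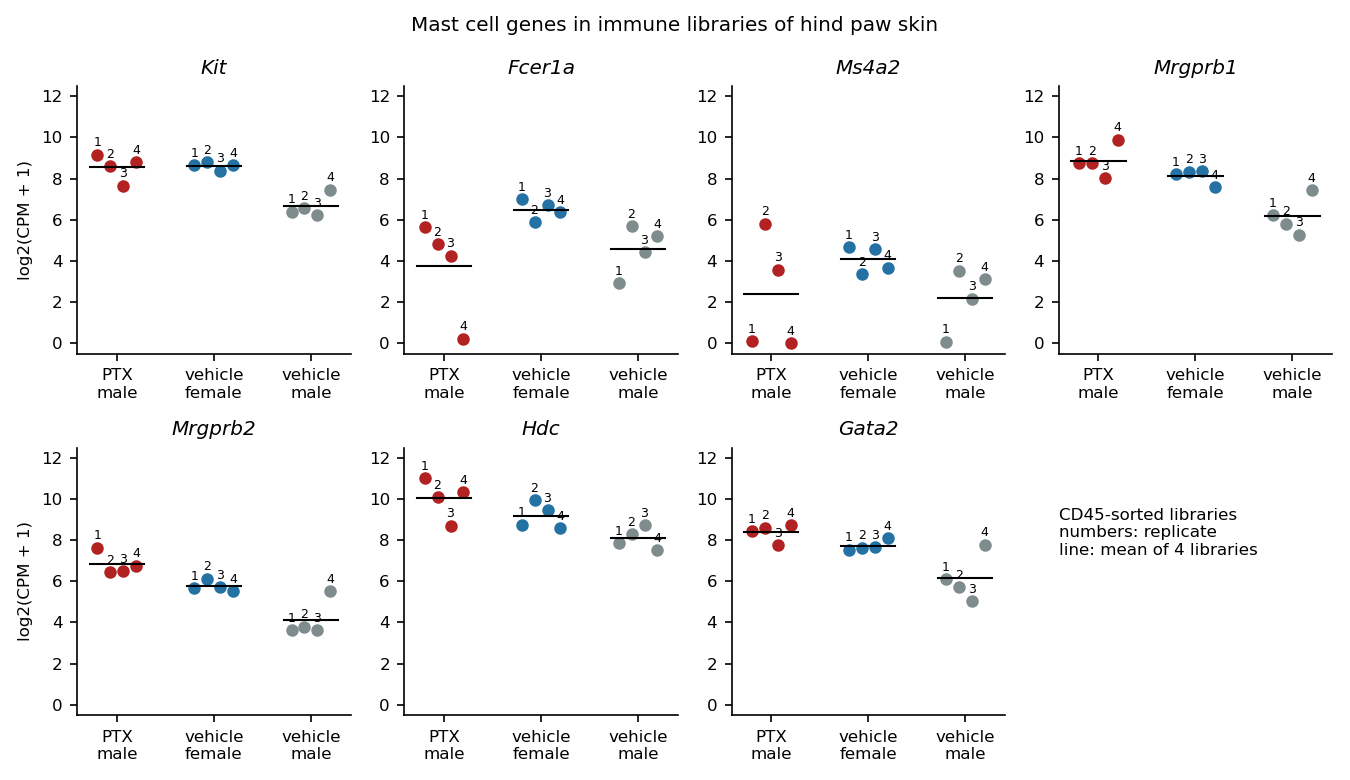
Level of each of the 7 genes in every immune library, as log2(CPM + 1) with TMM-scaled CPM, for PTX males, vehicle females and vehicle males from left to right. Points are libraries, numbered by replicate, and lines are means of the 4 plotted values. Kit, Mrgprb1 and Mrgprb2 have every PTX library above every vehicle male library, and Fcer1a has every PTX library below every vehicle female library.

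Both MRGPRB receptor genes rose against vehicle males. Mrgprb1 was at 432, 428, 256 and 953 CPM in PTX males, at 294, 322, 325 and 191 CPM in vehicle females, and at 73.8, 55.1, 37.7 and 171 CPM in vehicle males. Every PTX library lay above every vehicle male library, and replicate 4 of the vehicle males was the highest of its group. Mrgprb1 averaged 517 ± 302 CPM in PTX males and 84.4 ± 59.7 CPM in vehicle males (2.62 ± 0.49, adjusted p = 0.0119). Mrgprb2 was at 196, 86.7, 88.9 and 107 CPM in PTX males, at 49.3, 69.1, 51.3 and 44.7 CPM in vehicle females, and at 11.3, 12.8, 11.4 and 44.7 CPM in vehicle males. The PTX libraries were above both vehicle groups, and replicate 4 of the vehicle males stood near the vehicle females. Mrgprb2 averaged 120 ± 51.9 CPM in PTX males and 20.1 ± 16.4 CPM in vehicle males (2.58 ± 0.62, adjusted p = 0.0311). Over all tested genes, 3.11% had every PTX library above every vehicle male library, against 3 of the 7 members.

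Hdc, the histamine-making enzyme gene, was at 2068, 1089, 417 and 1282 CPM in PTX males, at 430.1, 974, 701 and 379 CPM in vehicle females, and at 229.8, 313, 422 and 183 CPM in vehicle males. PTX replicate 3 fell just below the highest vehicle male library, and the other PTX libraries lay above all libraries of both vehicle groups. Its mean was 1214 ± 679 CPM in PTX males and 287 ± 105 CPM in vehicle males (2.08 ± 0.45, adjusted p = 0.0206). Gata2 was at 349, 387, 215 and 426 CPM in PTX males, at 184, 197, 202 and 272 CPM in vehicle females, and at 68.2, 52.0, 31.7 and 217 CPM in vehicle males. Vehicle male replicate 4 exceeded the lowest PTX library, and the other vehicle males lay below all PTX libraries. Gata2 averaged 344 ± 91.9 CPM in PTX males and 92.3 ± 84.7 CPM in vehicle males (1.90 ± 0.50, adjusted p = 0.0427).

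The IgE receptor subunit genes did not pass against vehicle males. Fcer1a was at 48.8, 27.2, 18.0 and 0.170 CPM in PTX males, at 127, 57.6, 102.7 and 82.2 CPM in vehicle females, and at 6.56, 50.9, 20.4 and 36.0 CPM in vehicle males. PTX replicate 4 held 2 counts of Fcer1a, and the PTX and vehicle male libraries overlapped throughout (log2 fold change -0.27 ± 1.04, adjusted p = 0.964). Ms4a2 was at 0.0813, 55.2, 10.9 and 0 CPM in PTX males, at 24.3, 9.35, 22.8 and 11.8 CPM in vehicle females, and at 0.0501, 10.5, 3.49 and 7.56 CPM in vehicle males. PTX replicates 1 and 4 and vehicle male replicate 1 thus held 0 or 1 count, while PTX replicate 2 had the highest level of all 12 immune libraries (1.61 ± 1.83, adjusted p = 0.812). The same PTX replicates 1 and 4 had Kit at 575 and 440.3 CPM, so low Ms4a2 did not go with low Kit. They also had the fewest genes with more than 10 counts of all immune libraries, 7297 and 5956. PTX replicates 2 and 3 had 8458 and 8700. Whether weakly expressed genes were lost in these libraries was not tested.

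The calls against vehicle males rested to different degrees on single libraries. Kit passed in all 8 fits that left out 1 library (highest adjusted p = 0.0449). Mrgprb1 missed the threshold without vehicle male replicate 2 (adjusted p = 0.0530). Mrgprb2 missed it without vehicle male replicates 1, 2 or 3 (adjusted p = 0.0775, 0.105 and 0.102) or PTX replicate 1 (0.0690), and its log2 fold change was 3.27 without vehicle male replicate 4. Hdc missed it without vehicle male replicates 1, 2 or 4 (adjusted p = 0.0525, 0.0590 and 0.0644). Gata2 missed it without vehicle male replicates 1, 2 or 3 (0.110, 0.141 and 0.112) or PTX replicates 1, 2 or 4 (0.0785, 0.0641 and 0.106), and its log2 fold change was 2.73 without vehicle male replicate 4. Gata2 also missed it with library sizes taken over all genes (adjusted p = 0.0548), an alternative chosen after seeing the data. With TMM factors taken only from 1560 genes enriched in the immune sort, Mrgprb1 and Hdc still passed. Kit (1.30, adjusted p = 0.0725), Mrgprb2 (1.88, 0.123) and Gata2 (1.23, 0.270) did not. Mrgprb2 and Gata2 also missed it with no composition factor, with no filter on low counts and with only the 2 groups fitted (adjusted p = 0.0560 to 0.111 over the 6 values), and Kit and Gata2 against the mean of both vehicle groups (0.0698 and 0.0893). Hdc missed it in limma-voom with quality weights (0.227).

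Against vehicle females, 0 of the 7 members passed, where 1.76% of all tested genes were called. These 213 genes became 8 to 520 without 1 library, moving over 1.5 times without any of the vehicle females (8 without replicate 3) and without PTX replicates 2 or 3 (520 without replicate 3). DESeq2 and limma-voom with quality weights also called 0, and 1 member, Hdc, had an unadjusted edgeR p under 0.05, as did 15.7% of genes. Sex and treatment differ together in this comparison and cannot be told apart. Kit averaged 402 ± 155 CPM in PTX males and 395 ± 45.2 CPM in vehicle females (SD, n = 4 each; 0.02 ± 0.33, adjusted p = 0.992). Mrgprb2 had every PTX library above every vehicle female library, 120 ± 51.9 CPM against 53.6 ± 10.7 CPM (1.16 ± 0.60, adjusted p = 0.391), a pattern that 2.01% of genes shared. Fcer1a had every PTX library below every vehicle female library, 23.5 ± 20.2 CPM against 92.5 ± 29.6 CPM (-1.97 ± 1.08, adjusted p = 0.442), as did 5.6% of genes. Mrgprb1 (0.87 ± 0.47), Hdc (0.97 ± 0.44) and Gata2 (0.69 ± 0.49) had higher means in PTX males, with overlapping libraries and adjusted p of 0.431, 0.295 and 0.648. Ms4a2 averaged 16.5 ± 26.2 CPM in PTX males and 17.1 ± 7.61 CPM in vehicle females.

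**Figure D2:**
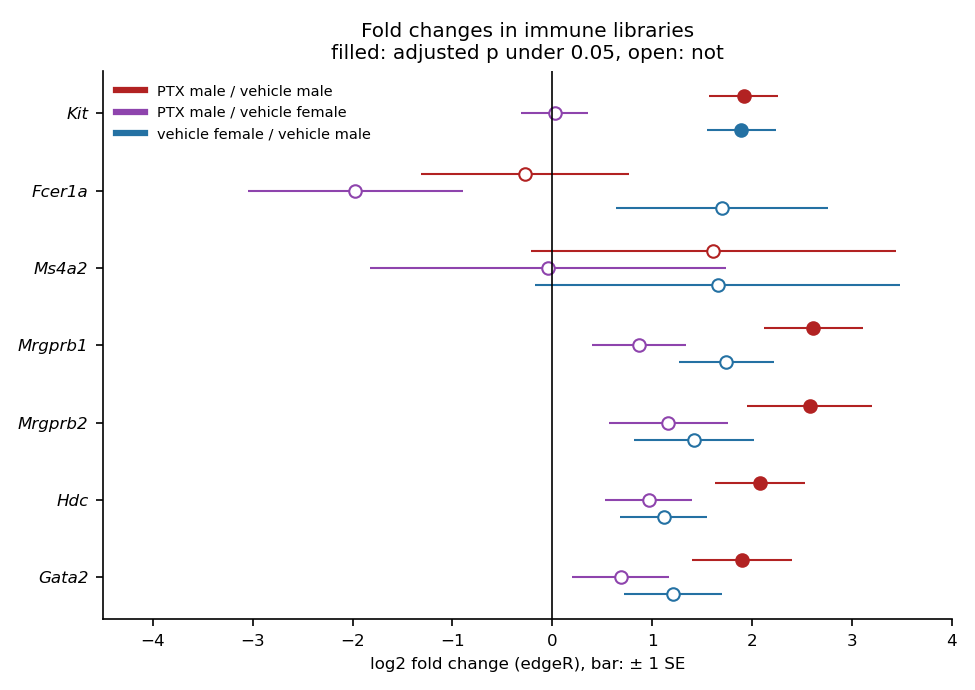
Log2 fold change with its standard error for each of the 7 genes in immune cells, for PTX males against vehicle males, PTX males against vehicle females and vehicle females against vehicle males. Filled symbols passed an adjusted p of 0.05: 5 genes in the first comparison, 0 in the second and Kit in the third.

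The 2 vehicle groups themselves differed. Kit was higher in vehicle females than in vehicle males, 395 ± 45.2 CPM against 106 ± 46.2 CPM (1.89 ± 0.35, adjusted p = 0.0325), and was the 1 member of 7 to pass, where 0.354% of all genes were called. This call was lost in 7 of the 8 fits that left out 1 library (adjusted p = 0.0863 to 0.165) and held without vehicle male replicate 4. Kit, Fcer1a, Mrgprb1 and Mrgprb2 had every vehicle female library above every vehicle male library, as did 2.07% of genes. All 7 members had higher means in vehicle females, with log2 fold changes between 1.11 for Hdc and 1.89 for Kit. Without vehicle male replicate 4, Gata2 also passed (2.09, adjusted p = 0.0467). DESeq2 called 2 members, and limma-voom with quality weights 4. The share of all genes that these 2 methods called is not given here, so their counts cannot be set against it. Since both PTX comparisons use the same PTX libraries and 1 of these vehicle groups each, their values are given side by side and are not independent.

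Ranked by level per kilobase of exon, Hdc was the highest member in all 3 immune groups, at 508 ± 284 CPM per kilobase in PTX males, 259.7 ± 115 in vehicle females and 120.0 ± 43.8 in vehicle males. Ms4a2 was the lowest in all 3, at 5.88 ± 9.33 CPM per kilobase in PTX males, 6.07 ± 2.71 in vehicle females and 1.92 ± 1.63 in vehicle males. In PTX males Mrgprb1 came next after Hdc, at 124 ± 72.2 CPM per kilobase, followed by Gata2 at 93.4 ± 25.0, Kit at 76.5 ± 29.6 and Mrgprb2 at 57.7 ± 25.0, whose spreads overlapped their neighbours. Fcer1a ranked 6 of 7 in PTX males, at 23.6 ± 20.3 CPM per kilobase. It ranked 2 of 7 in vehicle females, at 92.6 ± 29.7, and in vehicle males, at 28.5 ± 19.2, where it was close to Gata2 at 25.1 ± 23.0 and Kit at 20.2 ± 8.79.

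The granule protease genes Cpa3, Cma1, Mcpt4, Tpsb2 and Tpsab1 give a measure of mast cell RNA that uses none of the members. All 5 rose in PTX males against vehicle males, where 0.956% of all tested genes were called higher. Tpsab1, a tryptase gene, was at 652 ± 138 CPM in PTX males and 155 ± 31.9 CPM in vehicle males (2.07 ± 0.24, adjusted p = 0.000964), and Cma1, a chymase gene, at 900.1 ± 455 CPM in PTX males and 371 ± 137 CPM in vehicle males (1.28 ± 0.34, adjusted p = 0.0452). Against vehicle females 0 of 5 passed (0 also by DESeq2 and at an unadjusted p under 0.05), with log2 fold changes between -0.66 and 0.15, and in vehicle females all 5 were higher than in vehicle males (1.92 to 2.11). The 5 genes together summed to 2727 to 6640 CPM in PTX males, 4993 to 7518 CPM in vehicle females and 1171 to 2411 CPM in vehicle males.

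Each member was then set against the mean log2 level of these 5 proteases in the same library (pseudocount 1 CPM) and compared between groups with a two-sided exact permutation test. Relative to the proteases, Mrgprb2 lay at -2.69, -3.36, -2.60 and -3.01 in PTX males, at -4.37, -3.79, -4.59 and -4.96 in vehicle females, and at -4.39, -4.09, -4.22 and -3.29 in vehicle males. The PTX libraries were above every vehicle female library, and 1 vehicle male library lay among them. Gata2 lay at -1.86, -1.21, -1.34 and -1.02 in PTX males, at -2.49, -2.29, -2.64 and -2.38 in vehicle females, and at -1.90, -2.15, -2.83 and -1.03 in vehicle males. Fcer1a lay at -4.67, -5.00, -4.84 and -9.53 in PTX males, at -3.02, -4.05, -3.61 and -4.09 in vehicle females, and at -5.09, -2.18, -3.44 and -3.59 in vehicle males. Thus, per unit of protease RNA, PTX libraries held more Mrgprb2 and Gata2 and less Fcer1a than any vehicle female library. PTX and vehicle male libraries overlapped for each of these genes.

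Against vehicle females the log2 ratio was higher in PTX males by 1.52 for Mrgprb2, 1.17 for Mrgprb1 and 1.09 for Gata2, and lower for Fcer1a (-2.32, or -1.14 without PTX replicate 4). Each of these 4 had an exact permutation p of 0.0286 (n = 4 each), the smallest that 4 against 4 libraries allow. Of the tested genes other than the proteases, 4.51% lay higher and 3.13% lower in this ratio in all PTX libraries than in any of the vehicle female libraries. Hdc (1.29, exact p = 0.0571) and Kit (0.37, exact p = 0.2) also had higher mean ratios, and Ms4a2 a lower one (-1.26, exact p = 0.4), which lay between -2.38 without PTX replicate 2 and -0.32 without PTX replicate 1. Against vehicle males the differences were 1.09 for Mrgprb2 and 1.06 for Mrgprb1 (exact p = 0.0571 each) and 0.29 for Kit (exact p = 0.0857). Gata2 (0.62, exact p = 0.2) and Hdc (0.33, exact p = 0.629) differed less from vehicle males than from vehicle females. Fcer1a (-2.44, exact p = 0.114, or -1.26 without PTX replicate 4) and Ms4a2 (-1.45, exact p = 0.429) had lower mean ratios. Between vehicle females and vehicle males the 7 differences lay between -0.97 and -0.08, with the lowest exact p at 0.229. In all, 21 such tests were made on genes chosen with earlier results known, so none is counted as a call.

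**Figure D3:**
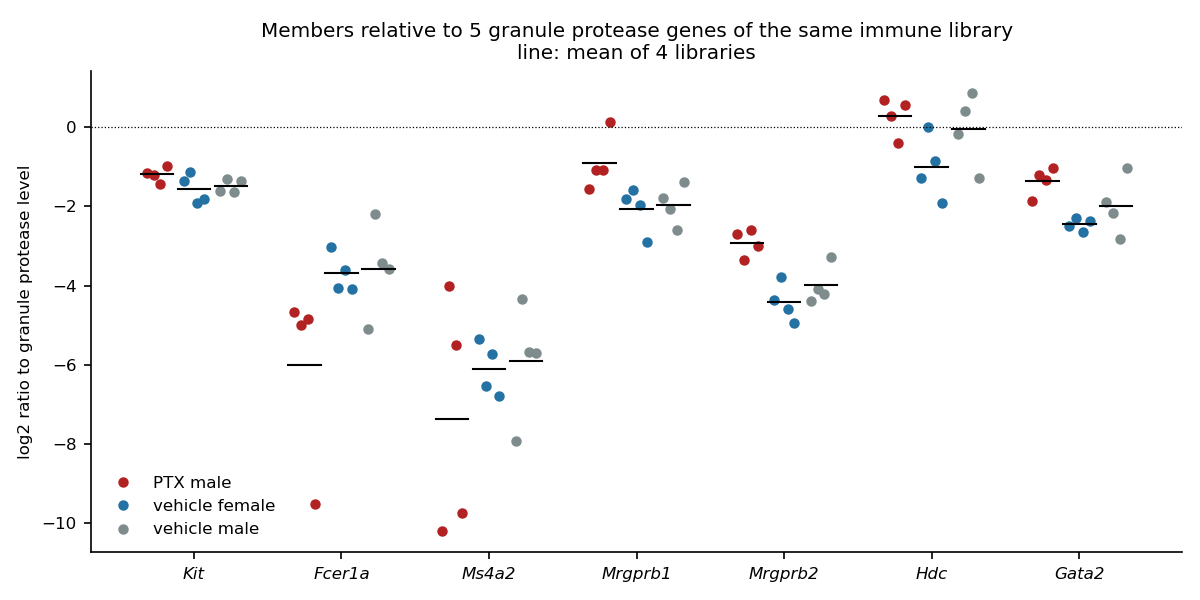
Log2 ratio of each of the 7 genes to the mean of 5 mast cell granule protease genes in the same immune library, for PTX males, vehicle females and vehicle males from left to right. Points are libraries and lines are means of 4. Mrgprb1, Mrgprb2 and Gata2 have every PTX library above every vehicle female library, and Fcer1a every PTX library below.

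Other genes of the mast cell programme were followed as lists chosen with earlier results of these data known. Of 16 tested further mast cell genes, 3 rose against vehicle males and none fell (list median 1.25). In this comparison 0.956% of all tested genes were called higher. Tph1, the serotonin-making enzyme gene of mast cells, was at 238 ± 219.9 CPM in PTX males and 26.0 ± 27.5 CPM in vehicle males (3.19 ± 0.83, adjusted p = 0.0410). Cyp11a1, a steroid-making enzyme gene that mouse mast cells express, was at 292 ± 97.2 CPM in PTX males and 61.2 ± 45.5 CPM in vehicle males (2.25 ± 0.51, adjusted p = 0.0251). Il1rl1, which encodes the IL-33 receptor, was at 221 ± 163 CPM in PTX males and 62.6 ± 23.7 CPM in vehicle males (1.82 ± 0.46, adjusted p = 0.0384). Il1rl1 is also 1 of 5 markers listed for group 2 innate lymphoid cells, which summed to 382 to 1247 CPM in PTX males, 227 to 516 CPM in vehicle females and 147 to 338 CPM in vehicle males. Of these, Gata3 was at 216 ± 140.0 CPM in PTX males and 47.2 ± 24.3 CPM in vehicle males (2.19 ± 0.82, adjusted p = 0.133), and their part in the Il1rl1 level was not tested. Against vehicle females 0 of these 16 passed (list median 0.055) and DESeq2 called 0. At an unadjusted p under 0.05 there were 4, as were 15.7% of all tested genes.

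Downstream of the receptors, 0 of 17 tested IgE receptor signalling genes and 0 of 13 KIT signalling genes passed against vehicle males, with list medians of 0.93 and 0.14. At an unadjusted p under 0.05 there were 4 of the IgE receptor signalling genes and 0 of the KIT signalling genes, against 20.1% of all tested genes. DESeq2, which called more of all genes than edgeR did, called 2 and 1. Fcer1g, the signalling gamma chain shared with other Fc receptors, was at 1733 ± 350.0 CPM in PTX males, 1442 ± 274 CPM in vehicle females and 1099 ± 202 CPM in vehicle males (0.66 ± 0.21 against vehicle males, adjusted p = 0.0833). Ptpn6, which encodes the phosphatase SHP-1, was at 591 ± 252 CPM in PTX males, 388 ± 88.2 CPM in vehicle females and 300.1 ± 129 CPM in vehicle males. Of the KIT signalling genes, Sh2b3, an adaptor that restrains cytokine receptors, was at 134 ± 108 CPM in PTX males, 183 ± 35.7 CPM in vehicle females and 154 ± 49.0 CPM in vehicle males. Of 6 tested transcription factors of the mast cell lineage 0 passed and DESeq2 called 1. An unadjusted p under 0.05 was found for 2, and for 20.1% of all tested genes. Lyl1 was at 256 ± 43.9 CPM in PTX males, 112 ± 16.3 CPM in vehicle females and 116 ± 62.3 CPM in vehicle males, with every PTX library above both vehicle groups (1.19 ± 0.38, adjusted p = 0.135, and 1.14 ± 0.38, adjusted p = 0.0955).

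Of the genes for storing, degrading and sensing histamine, 4 of 9 had enough counts to be tested and 0 passed (0 also by DESeq2 and at an unadjusted p under 0.05). Slc18a2, the transporter that loads histamine into granules, was at 88.9 ± 61.2 CPM in PTX males, 86.7 ± 29.2 CPM in vehicle females and 25.5 ± 8.65 CPM in vehicle males (1.80 ± 1.02 against vehicle males, adjusted p = 0.399). Hrh1, a histamine receptor gene, was at 69.2 ± 80.7 CPM in PTX males, 37.3 ± 20.7 CPM in vehicle females and 50.9 ± 10.3 CPM in vehicle males. Among ligands of mast cells, Kitl, which encodes the KIT ligand stem cell factor, fell to 0.258 ± 0.136 CPM in PTX males, against 15.7 ± 10.9 CPM in vehicle males (-5.89 ± 1.58, adjusted p = 0.0455). Vehicle females had 11.9 ± 7.68 CPM (-5.50 ± 1.55, adjusted p = 0.0952). Fibroblast, keratinocyte and endothelial markers were also lower in PTX males than in vehicle males (the 7 endothelial markers summed to 0.341 to 41.0 CPM in PTX males and 64.5 to 529 CPM in vehicle males), and their part was not tested. Of the other MRGPR genes, 4 of 18 could be tested, and Mrgpre fell to 0.0387 ± 0.0774 CPM, against 12.2 ± 7.95 CPM in vehicle males (-8.04 ± 1.87, adjusted p = 0.0267).

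Markers of other cells that share members were also measured in the immune libraries. The 5 basophil markers summed to 59.3 to 206 CPM in PTX males, 57.8 to 157 CPM in vehicle females and 19.6 to 69.4 CPM in vehicle males. Most of the highest sum was Cd200r3, a gene that is also among the further mast cell genes, at 90.1 ± 76.2 CPM in PTX males, 17.3 ± 19.9 CPM in vehicle females and 6.49 ± 4.25 CPM in vehicle males (3.79 ± 1.35 against vehicle males, adjusted p = 0.115). Prss34, a basophil protease gene, was at 57.3 CPM in PTX replicate 3 and at 0 to 1.17 CPM in the other PTX libraries, against 16.5 to 49.3 CPM in vehicle females and 0 to 26.0 CPM in vehicle males. Mcpt8, which defines mouse basophils, had no count in any PTX or vehicle male immune library and 0.0560 to 3.59 CPM in vehicle females. The 6 melanocyte markers summed to 0 to 7.43 CPM in PTX males, 0 to 10.7 CPM in vehicle females and 1.20 to 31.2 CPM in vehicle males, and the pigment genes Dct, Tyrp1 and Tyr had no count in any immune library. Other immune markers moved as well. Against vehicle males, 2 of 5 dendritic cell markers (H2-Ab1 and Cd74) and 1 of 5 macrophage markers (Emr1) rose. Of 5 T cell markers 0 did (1 at an unadjusted p under 0.05 and 1 by DESeq2). Over all tested genes, 0.956% were called higher and 20.1% had an unadjusted p under 0.05. The dendritic cell markers summed to 17679 to 35541 CPM in PTX males, 7476 to 13055 CPM in vehicle females and 6310 to 10246 CPM in vehicle males. Most of this sum was H2-Ab1 and Cd74, at 11932 ± 4679 and 12055 ± 3422 CPM in PTX males. Cd207, Itgax and Flt3 averaged 55.8, 67.1 and 136 CPM there. The T cell markers summed to 194 to 378 CPM in PTX males, 58.5 to 287 CPM in vehicle females and 43.1 to 174 CPM in vehicle males. Among neutrophil markers, S100a8, S100a9 and Cxcr2 had lower means in PTX males than in vehicle males, while Csf3r had a similar mean. S100a8 was at 244 ± 201 CPM in PTX males, 74.3 ± 108 CPM in vehicle females and 626 ± 573 CPM in vehicle males. Csf3r was at 115 ± 83.7, 58.3 ± 53.4 and 108 ± 52.4 CPM in the same groups. The part of these cells in the members' levels was not tested.

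In the other sorts no member passed for PTX. In fibroblasts, Kit, Mrgprb1 and Hdc had enough counts to be tested and 0 of 3 passed for PTX males against vehicle males, where 0.0184% of genes were called. DESeq2 also called 0, and 0 members had an unadjusted p under 0.05, against 8.07% of genes. Kit ranged over 0.494 to 21.1 CPM in PTX males and 0.703 to 38.5 CPM in vehicle males. In keratinocytes 0 of the 3 tested members (Kit, Hdc and Gata2) passed, where 1.45% of genes were called, but DESeq2 called Gata2, which was also the 1 member with an unadjusted p under 0.05, as were 14.8% of genes. Gata2 was at 151, 205, 53.5 and 126 CPM in the PTX keratinocyte libraries, against 0, 0.181 and 0 CPM in vehicle males (log2 fold change 11.02 ± 3.10, edgeR adjusted p = 0.105), and at most 0.782 CPM in vehicle females. The PTX libraries all lay above every vehicle library, and 9.15% of tested genes had all PTX libraries above all vehicle male ones. Endothelial markers stood beside it: they summed to 1650 to 2336 CPM in PTX keratinocyte libraries, 0.433 to 24.5 CPM in vehicle females and 0.526 to 381 CPM in vehicle males. Immune RNA also stood beside it, and Gata2 is high in the immune sort. The 8 general immune markers summed to 851 to 1625 CPM in PTX keratinocyte libraries, 126 to 851 CPM in vehicle females and 164 to 447 CPM in vehicle males, the 5 macrophage markers to 195 to 1235 CPM in PTX males, 7.47 to 34.4 CPM in vehicle females and 7.89 to 15.3 CPM in vehicle males. The 5 dendritic cell markers summed to 239 to 3051 CPM in PTX males, 23.1 to 101.6 CPM in vehicle females and 13.9 to 25.8 CPM in vehicle males. Most of this sum was H2-Ab1 and Cd74, at 672 ± 441 and 933 ± 628 CPM in PTX males. Itgax averaged 0.0323 CPM there, and Cd207 and Flt3 each had counts in 2 of the PTX libraries. Each keratinocyte marker had a lower mean in the PTX keratinocyte libraries than in vehicle males. Krt14 was at 3527 ± 2089 CPM in PTX males, 12566 ± 3639 CPM in vehicle females and 13459 ± 1521 CPM in vehicle males. Fibroblast markers were higher in PTX males than in vehicle males, as given below. The part of endothelial, immune and fibroblast RNA, and of the lower keratinocyte RNA, in the Gata2 level was not tested. Vehicle male replicate 2 held the endothelial sum of 381 CPM, almost all as Pecam1, with Gata2 at 1 count and Cdh5 at 0.

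**Figure D4:**
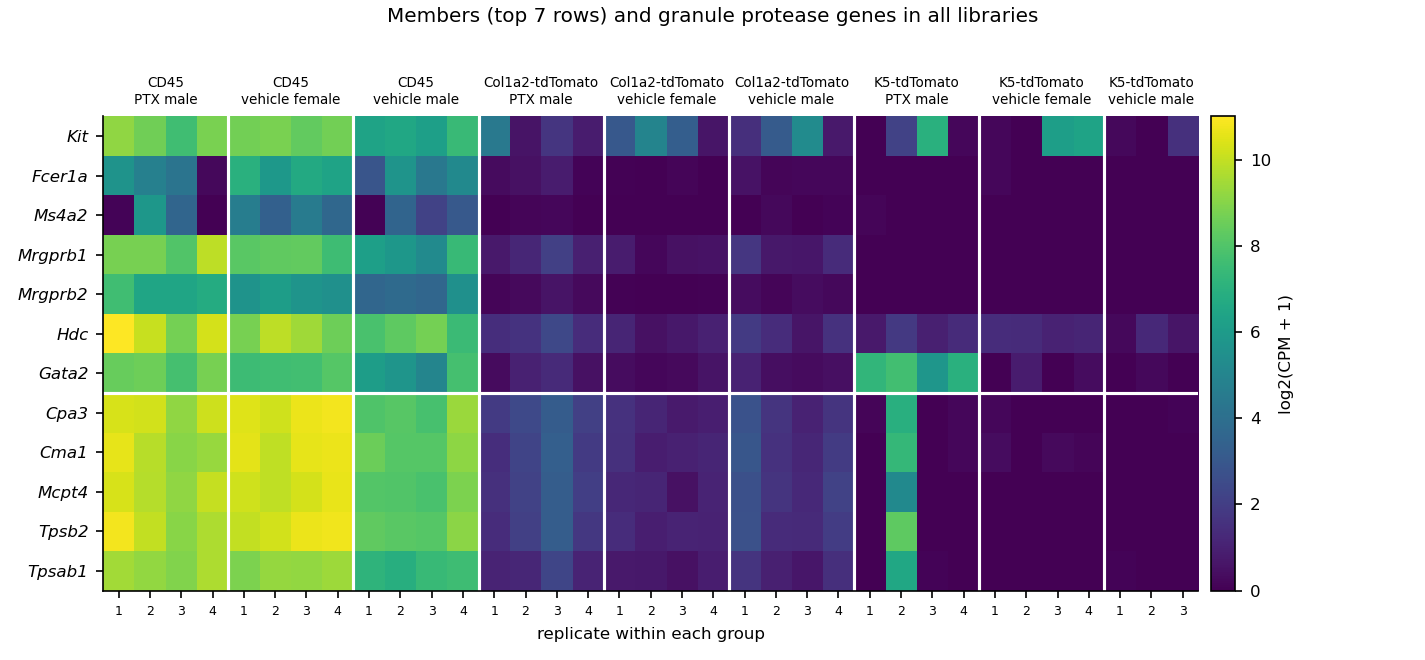
Level of each of the 7 genes (top rows) and of the granule protease genes (below) in all 35 libraries, as log2(CPM + 1). Libraries are ordered by sort and group, with PTX males before vehicle females and vehicle males. Each of the 7 genes has its highest group mean in the immune sort, though Ms4a2 and Fcer1a are very low in some immune libraries. Gata2 is also present in all 4 keratinocyte libraries of PTX males, and Kit in some keratinocyte libraries.

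The genes whose pattern over the 12 immune libraries was most like the mean of the 7 members were, in order, Serpinb1a, Cpa3, Mcpt4, Tpsb2, Cma1, Cd209d, Ring1 and Sla. Likeness was the root mean square difference of centred log2(CPM + 1), which was 0.41 for Serpinb1a and 0.53 for Sla, against a median of 1.84 over 9696 candidate genes. Of the members themselves Kit lay closest to the mean (0.42), while Fcer1a (1.61) and Ms4a2 (1.58) lay farthest. Serpinb1a, a protease inhibitor gene, was at 582 CPM in PTX males, 688 CPM in vehicle females and 197 CPM in vehicle males.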

How the data were processed

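Messenger RNA from hind paw punch biopsies, sorted into 3 cell populations, was prepared as stranded poly-A libraries and read from 1 end over 50 bases, as the labels' protocols state. Demultiplexing used bcl2fastq, and reads were aligned with TopHat2 to mouse build mm9 and counted with HTSeq, per the submitters' processing notes. Their versions, the annotation and the strand setting were not given in those notes. The authors deposited unnormalized counts, whole numbers of reads for each gene symbol. The lines HTSeq adds for reads outside genes or with several places took no part in library sizes or tests.

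For each sort a separate model was fitted (edgeR 4.0.16, R 4.3.3), with genes filtered by filterByExpr, TMM factors, a coefficient for every group and robust glmQLFit. Two-sided quasi-likelihood tests were adjusted by Benjamini-Hochberg over all genes tested, at 0.05. Sorts were compared in a fit over all 35 libraries. CPM are scaled within a sort, or over all libraries for comparisons between sorts. Members relative to the granule proteases were compared by exact permutation. Of these tests, the edgeR test of PTX males against vehicle males in immune cells was tried on simulated counts. Promoter sequences are RefSeq's on GRCm38.p6, where all 7 members were found; no coordinates are given on mm9. Shared stretches were sought in GENCODE M21 transcripts; of the members, Ms4a2 shared 2.1% of its 50-base stretches with other genes (Ms4a4b) and Hdc 0.141%.

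The members and gene lists (20 lists, 165 of 168 entries found) were chosen with earlier results of these data known. All 7 members are named; of each list up to 4 passing genes with the lowest p are named, or at most 2 of the most abundant as values; marker lists are given as sums, naming defining genes. Alternatives were RLE scaling, no composition factor, no filter, DESeq2 1.42.0, limma 3.58.1 with voom quality weights, TMM over immune-enriched genes, only the 2 groups compared, the replicate number as a block, both vehicle groups as reference, a pseudocount of 5 CPM, plain CPM, and leaving out each library; chosen after seeing the data were library sizes over all genes and, for keratinocytes, leaving out the shallowest library (988712 counts). Every pair of libraries differed by more than counting noise.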

Additional observations from a re-analysis of the deposited data

Results flagged for a closer look

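In immune cells of vehicle males, Mrgprb2 was at 44.7 CPM in replicate 4, against 11.3 to 12.8 CPM in the other 3 libraries, a gap that singles out 1 sample in its group. The same library had the highest level of its group for Kit (174 CPM), Mrgprb1 (171 CPM) and Gata2 (217 CPM), but the lowest for Hdc (183 CPM). Chance alone marks about 1 in 20 groups in this way. Without this library the log2 fold change of Mrgprb2 for PTX males against vehicle males was 3.27, against 2.58 with it.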

How the results depend on the processing

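Each group had at most 4 libraries, and Fcer1a and Ms4a2 rested in some of them on 0 to 2 counts. For PTX males against vehicle males, 5 members were called. The number was 3 with no composition factor, with no filter on low counts, with only the 2 groups compared and with the mean of both vehicle groups as reference, and 2 with TMM over immune-enriched genes, which moved the median of all genes to -0.43. It was 5 with RLE and DESeq2, and 4 with voom quality weights and with library sizes over all genes. Leaving out 1 library gave 1 to 5. The cause was not tested. Over all genes this comparison had 669 calls, against 1870 by DESeq2, 148 with the replicate block and 38 with voom, and 230 to 954 without 1 library. Against vehicle females 0 members were called under all of the settings tried, with 213 genes called in all, 8 to 520 without 1 library, 1258 by DESeq2 and 1 to 3 with voom, only the 2 groups or the replicate block.

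Between vehicle females and vehicle males 1 member was called, 2 by DESeq2, 4 with voom, 0 with TMM over immune-enriched genes and 0 to 2 without 1 library. For DESeq2 and voom the share of all genes called in this comparison is not given. In keratinocytes 0 members were called, and 1 (Gata2) by DESeq2. Members relative to the proteases had 0 calls under each setting, which says little about stability. The smallest exact permutation p is 0.0286 with 4 against 4 libraries. Once adjusted over the members, neither 4 against 4 nor 3 against 4 libraries can often pass.

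The replicate numbers did not pair the libraries: correlations of same-numbered libraries lay between -0.05 and 0.10. With the replicate block, 3 members were called for PTX males against vehicle males (not Mrgprb2, adjusted p = 0.0890, and Hdc, 0.0661), and no call changed in the other comparisons of members.

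Directions turned only for values that had not passed. Against vehicle males, Fcer1a lay between -0.94 and 0.040 and Ms4a2 between -0.55 and 2.12 without 1 library, and Ms4a2 was -0.021 with voom. Against vehicle females, Kit was -0.27 with no composition factor, -0.050 with no filter, -0.049 with only the 2 groups, -0.051 with the replicate block, -0.23 with voom, -0.16 with TMM over immune-enriched genes and -0.043 with library sizes over all genes, and -0.21 to 0.23 without 1 library. Ms4a2 was 0.0086 with RLE, 0.0085 with DESeq2 and -2.21 to 0.35 without 1 library. In fibroblasts, without 1 library, Kit lay between -3.32 and 0.80 and Mrgprb1 between -0.42 and 0.74. Relative to the proteases and without 1 library, Hdc against vehicle males lay between -0.084 and 0.63. Between the vehicle groups Kit lay between -0.22 and 0.038, Fcer1a between -0.62 and 0.35, Ms4a2 between -0.86 and 0.33 and Mrgprb1 between -0.32 and 0.16.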

Other observations

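Mast cell protease RNA appeared in 1 keratinocyte library. PTX replicate 2 of the keratinocyte sort held Tpsb2 at 310.3 CPM, Cma1 at 159 CPM, Cpa3 at 121 CPM, Tpsab1 at 92.2 CPM and Mcpt4 at 37.0 CPM, while the other 3 PTX keratinocyte libraries held 0 to 0.142 CPM of each. In that library Mrgprb1, Mrgprb2, Fcer1a and Ms4a2 had no count, Kit had 27 counts, Hdc 20 and Gata2 1588, the highest Gata2 level of the sort. Kit in the keratinocyte sort was instead high in PTX replicate 3 (1602 counts) and in vehicle female replicates 3 and 4 (657 and 832 counts), and at most 27 counts in every other keratinocyte library.

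Kitl, the ligand of KIT, was found mainly outside the immune sort. In fibroblasts it was at 90.2, 468, 43.9 and 37.8 CPM in PTX males, at 34.3, 59.3, 98.9 and 59.6 CPM in vehicle females, and at 122, 72.7, 74.9 and 105 CPM in vehicle males. In keratinocytes it was at 83.8, 270.3, 123 and 384 CPM in PTX males, at 113, 67.2, 0.217 and 52.7 CPM in vehicle females, and at 41.3, 0.181 and 0.186 CPM in vehicle males. The PTX keratinocyte libraries lay above all vehicle male libraries (log2 fold change 3.95 ± 2.02 SE, edgeR adjusted p = 0.385), as did 9.15% of tested genes, and fibroblast markers in them summed to 14318 to 20451 CPM, against 111 to 573 CPM in vehicle males; their part was not tested.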
